A study of Marchantia polymorpha with 12 samples.

Results

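The genes described here are 96 wound-induced genes of the liverwort Marchantia polymorpha whose response was weaker in a double mutant of fatty acid desaturase genes than in the male wild-type strain Tak-1. They were chosen from 20574 gene IDs by the measured values themselves. A gene had to respond to wounding in Tak-1 by at least 1 on the log2 scale (2-fold), to respond by at least 1 less in the mutant, to have mock levels within 0.5 of each other in the genotypes, and to average at least 5 CPM in wounded Tak-1. The scale is log2 of the group's mean CPM plus 0.5, with CPM the count of a gene scaled to a common library total. Because these values chose the genes, the levels and responses of the 96 genes are given as a description, and no test of them stands as evidence.

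RNA-seq was made from 12 libraries, 3 in each of 4 groups: wounded double mutant, wounded Tak-1, mock-treated double mutant and mock-treated Tak-1. Plants of both genotypes grew on agar medium for 3 weeks, were wounded with tweezers or left as mock, and were frozen 2 h later, with 6 to 8 plants pooled in each replicate. The sample titles give the mutant as Mpfad3fad7 and the growth protocol as Mpdes6fad5, and the labels do not say whether it is 1 line or several, so it is called the double mutant or the mutant here. A pair of wounded mutant columns carries the same header, and these libraries are written A and B, beside the numbered library 1.

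Omega-3 desaturases place the last double bond in the fatty acids from which plants build jasmonates, the lipid hormones of wounding. In Arabidopsis, lipoxygenases and CYP74 enzymes oxidise and rearrange these fatty acids, the receptor COI1 perceives the hormone, and JAZ repressors are then degraded, which frees transcription factors. In Marchantia the ligand of COI1 is dinor-OPDA, a precursor of the jasmonate of flowering plants. The liverwort thallus also makes terpenes and phenolic compounds, some of them stored in oil body cells.

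Library totals ran from 19121900 to 30821817 counts, so that 3 counts, taken as the detection floor, correspond to 0.0973 to 0.157 CPM. Between libraries of a group the chi-square of the counts averaged 8.27 to 27.5 per gene, more than counting error alone gives. None is therefore the same library sequenced again. Whether any were made from the same RNA pool cannot be told from these values. Mutant mock library 1 correlated less with libraries 2 and 3 of its group (r = 0.9941 and 0.9935 across genes) than these did with each other (0.9968). The tissue label reads leaflets, while the protocol describes apical fragments without gemma cups. MpRBCS, a photosynthesis gene, averaged 184 CPM in the wounded mutant, 173 CPM in wounded Tak-1, 178 CPM in mutant mock and 167 CPM in Tak-1 mock. The sperm protein gene MpPRM had 0 counts in 3 of the 4 groups and 0.0174 CPM in mutant mock. The 3 antheridium and sperm genes found by symbol summed to 3.28 to 4.05 CPM in the wounded mutant, 3.11 to 3.81 CPM in wounded Tak-1, 0.889 to 1.11 CPM in mutant mock and 0.714 to 0.958 CPM in Tak-1 mock. The gemma cup genes MpKAR and MpGCAM1 summed to 28.9 to 38.4 CPM in the wounded mutant, 30.7 to 58.3 CPM in wounded Tak-1, 50.8 to 73.2 CPM in mutant mock and 63.3 to 106 CPM in Tak-1 mock. MpFAD3 averaged 243, 212, 250 and 223 CPM in the same order of groups, MpDES5 198, 168, 145 and 132 CPM, MpDES6 44.2, 36.3, 91.4 and 84.0 CPM, and MpFAD5 347, 344, 317 and 238 CPM. MpFAD8 averaged 20.5, 117, 13.7 and 66.8 CPM and MpFAD11 195, 911, 182 and 549 CPM, both lower in the mutant in mock and after wounding. No gene with the symbol MpFAD7 was found. None of these levels checks the genotype, since an edited gene can still be transcribed.

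Of all IDs, 1073 met the conditions on Tak-1 response, mock level and CPM, and 107 of these (9.97%) responded by at least 1 less in the mutant. From these, 11 were left out by name, which left 96. Among the 1073 wound-induced genes, the response was lower in the mutant for 822 and higher for 251, and in no case higher by 1 or more. The mutant-minus-Tak-1 difference of responses had a median of -0.27 over the 1073 genes and of -0.22 over the 966 that stayed above the threshold. Over the 10925 genes with at least 5 CPM in any group it was 0.09. The Tak-1 response that chose the 1073 genes is also a term of this difference, so these counts and medians are a description and nothing is read from them.

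**Figure D1:**
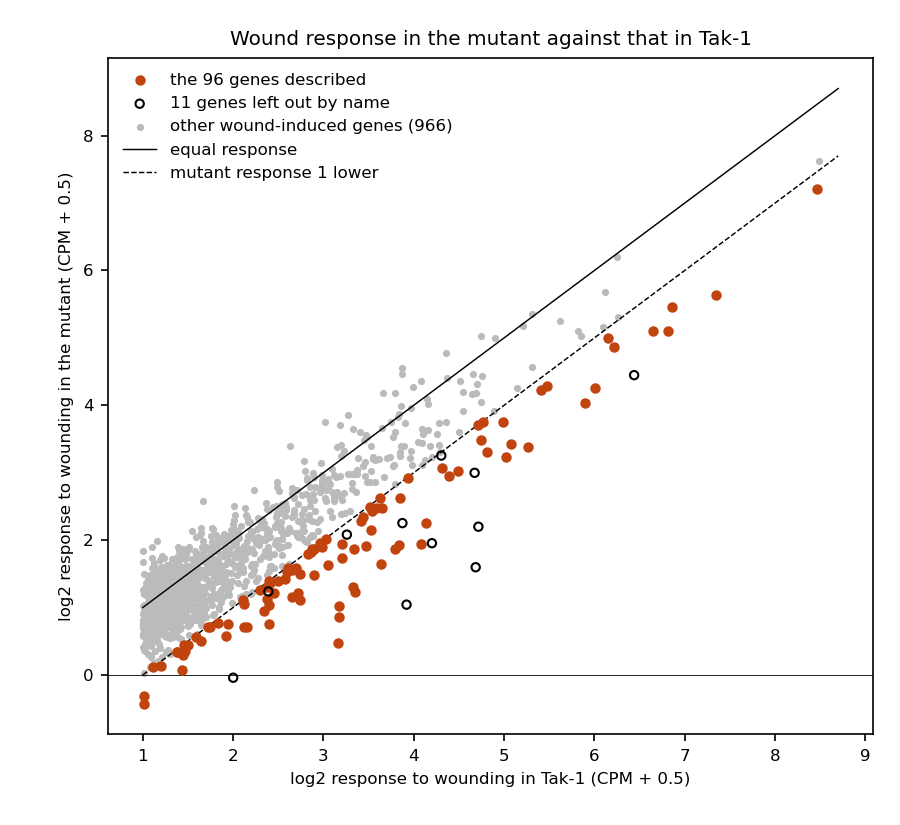
Response to wounding in the double mutant (vertical axis) against Tak-1 (horizontal axis), both as log2 of group mean CPM + 0.5, wounded minus mock, for 1073 wound-induced genes with similar mock levels. The filled points are the 96 genes, which lie on or under the dashed line by construction; grey points are the 966 genes above it, and open circles are 11 genes left out by name.

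The members closest to the threshold differ little from their neighbours outside it. Just inside were Mp4g09190, with a difference of -1.0003, and Mp2g21590, with -1.0045. Just outside were MpEDS5 (Mp1g04370), named for an Arabidopsis transporter of salicylate synthesis, with -0.9997, and Mp1g11350, with -0.995. MpEDS5 averaged 53.0 ± 5.51 CPM in the wounded mutant and 132 ± 12.7 CPM in wounded Tak-1, against 22.9 ± 1.1 CPM in mutant mock and 28.5 ± 1.29 CPM in Tak-1 mock (SD, n = 3 each). Of the 96 genes, 32 had a difference above -1.1, 23 a difference under -1.5 and 6 a difference under -2. Without mutant mock library 1, the library that stood apart, the rule chose 84 genes, 72 of them among the 96.

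Taken over the 96 genes, the mutant still responded. The response had a median of 1.64 in the mutant (range -0.42 to 7.20) and of 3.01 in Tak-1 (1.01 to 8.47), which are median folds of 3.71 and 9.35. For the difference of responses the median was -1.24 and ran from -2.68 to the threshold. Wounded mutant levels had a median of 40.2% of the wounded Tak-1 level and a range from 7.61% to 69.0%. Mock levels, held alike by the rule, differed by a median of -0.00 (range -0.46 to 0.48). In bulk tissue, fewer responding cells and less RNA per cell cannot be told apart.

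The libraries of each group were close to one another for the 96 genes as a set. Together the genes held 0.464, 0.522 and 0.573% of all counts in libraries 1, A and B of the wounded mutant, and 1.25, 1.23 and 1.20% in wounded Tak-1 libraries 1, 2 and 3. They held 0.192, 0.180 and 0.177% in the mutant mock libraries and 0.176, 0.179 and 0.184% in the Tak-1 mock libraries. The median gene stood 1.47, 1.66 and 1.86 above its Tak-1 mock mean on the log2 scale in the wounded mutant libraries, and 3.02, 2.96 and 2.97 above it in wounded Tak-1. In mutant mock the same medians were 0.06, -0.04 and -0.00, and in Tak-1 mock 0.00, -0.04 and 0.03.

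**Figure D2:**
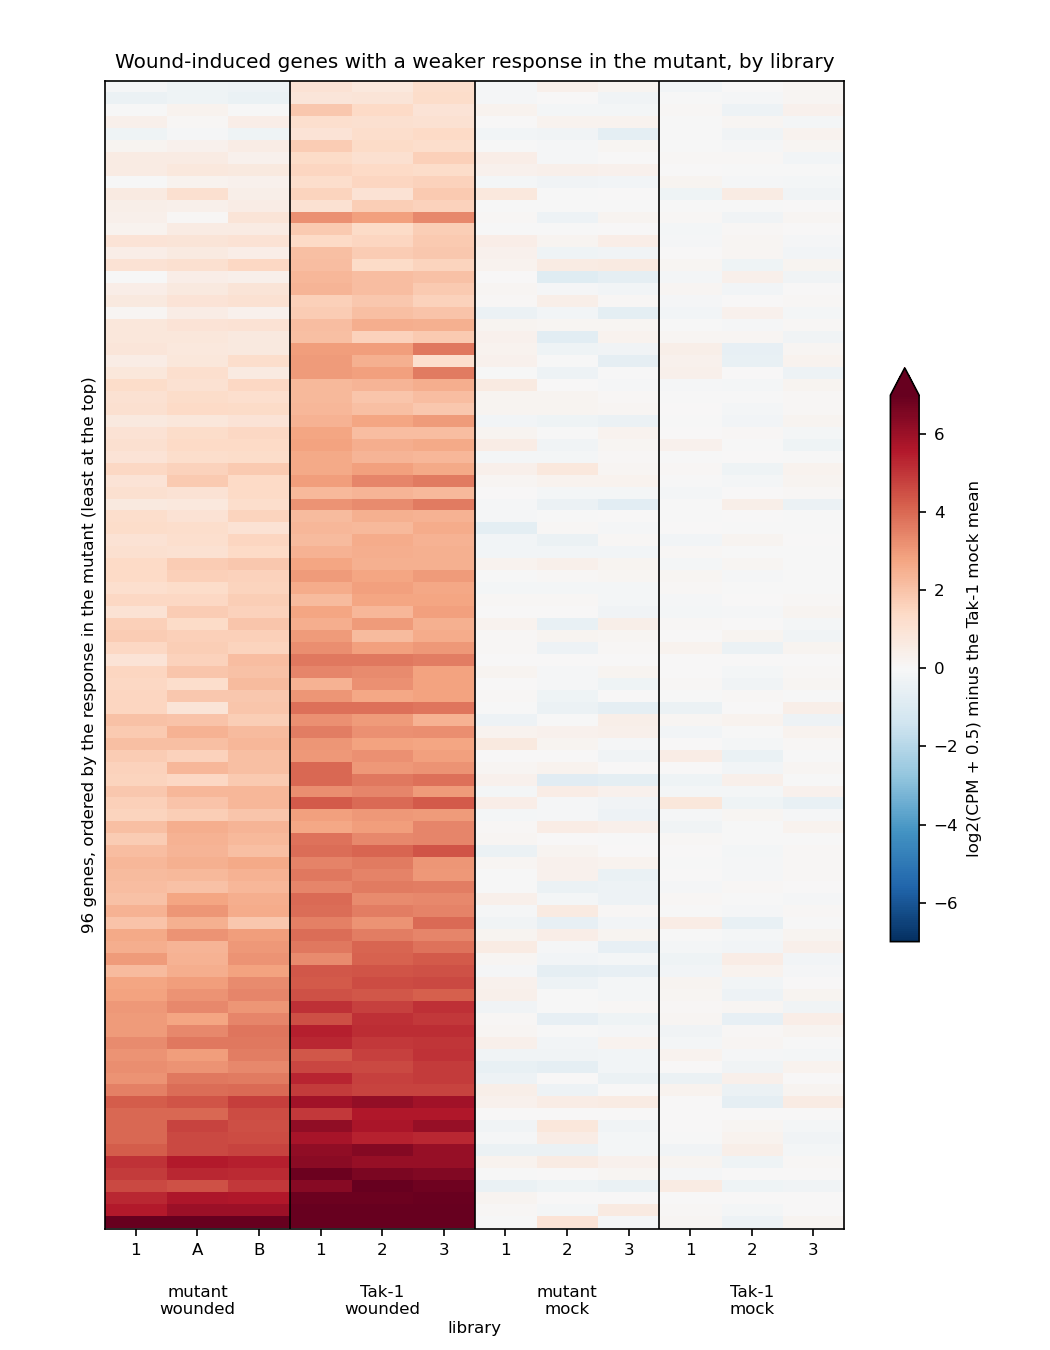
Level of each of the 96 genes in each of the 12 libraries, as log2(CPM + 0.5) minus the gene's mean in Tak-1 mock, with genes ordered by the response in the mutant; colours stop at 7, and higher values share the darkest shade. The wounded mutant columns are paler than the wounded Tak-1 columns for most genes, with overlapping wounded libraries in 3 (Mp3g13570, MpCYP822A1 and Mp7g19040); MpERF21, in the bottom row, is past the colour limit in every wounded library.

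For 93 of the 96 genes every wounded mutant library was below every wounded Tak-1 library, which holds for 14.3% of the 13726 genes tested. The exceptions were Mp3g13570, MpCYP822A1 and Mp7g19040. Every wounded Tak-1 library was above every Tak-1 mock library for all 96 genes (26.4% of the genes tested), and every wounded mutant library was above every mutant mock library for 87 (30%). The mock ranges of the genotypes overlapped for 78 genes (73.5% of the genes tested). In edgeR's quasi-likelihood test, at an adjusted p under 0.05 over all genes tested, the 96 genes were all called higher after wounding in Tak-1 (30% of the genes tested were) and 86 were called higher in the mutant (28.6%). Another 2 were called lower in the mutant (22.6%) and 8 were not called. A lower response in the mutant was called for 63 of the 96 genes (2.59%) and the wounded mutant lower than wounded Tak-1 for 94 (9.51%). Of the 96 genes 2 differed in mock (4.52%), Mp2g10270 and Mp8g02140, both higher in the mutant. The counts in Tak-1 and between the genotypes largely repeat what the choice of the genes set. The rule did not ask for a response in the mutant, but the mutant's values were part of the choice. None of these counts is read further.

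How much of the response the mutant kept varied from gene to gene. Expressed as CPM gained after wounding, the mutant gained a median of 31.4% of what Tak-1 gained (quartiles 19.5% and 37.6%), and the 966 other wound-induced genes a median of 76.7%. The mutant gained under 20% for 25 genes, 20 to 50% for 66 and at least 50% for 5. On the log2 scale, 24 genes responded by less than 1 in the mutant, 51 by 1 to 3 and 21 by 3 or more.

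Set out by the level in Tak-1 mock, the median kept share lay between 26.4% and 33.3%, and the median log2 response was lower in genes with a higher start. The rule's minimum CPM in wounded Tak-1 demands a larger Tak-1 response from genes with a low start. The order of the responses, and of the counts of responses under 1, is therefore partly set by the choice of the genes and is read no further. The 21 genes under 1 CPM in Tak-1 mock had median responses of 2.92 in the mutant and 4.14 in Tak-1, and the mutant gained a median of 33.3% of the Tak-1 gain. The 47 genes between 1 and 20 CPM had median responses of 1.87 and 3.21 and a median gain of 32.9%. The 28 genes at 20 CPM or more had median responses of 0.90 and 2.12 and a median gain of 26.4%. A response under 1 in the mutant was seen in 1 of the 21, 9 of the 47 and 14 of the 28 genes. A lower response in the mutant was called for 2, 35 and 26 genes of these classes. Near-silent genes also depend most on the pseudocount: with 0.1 CPM in place of 0.5, 13 of the 21, 44 of the 47 and 28 of the 28 genes still met the rule.

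**Figure D3:**
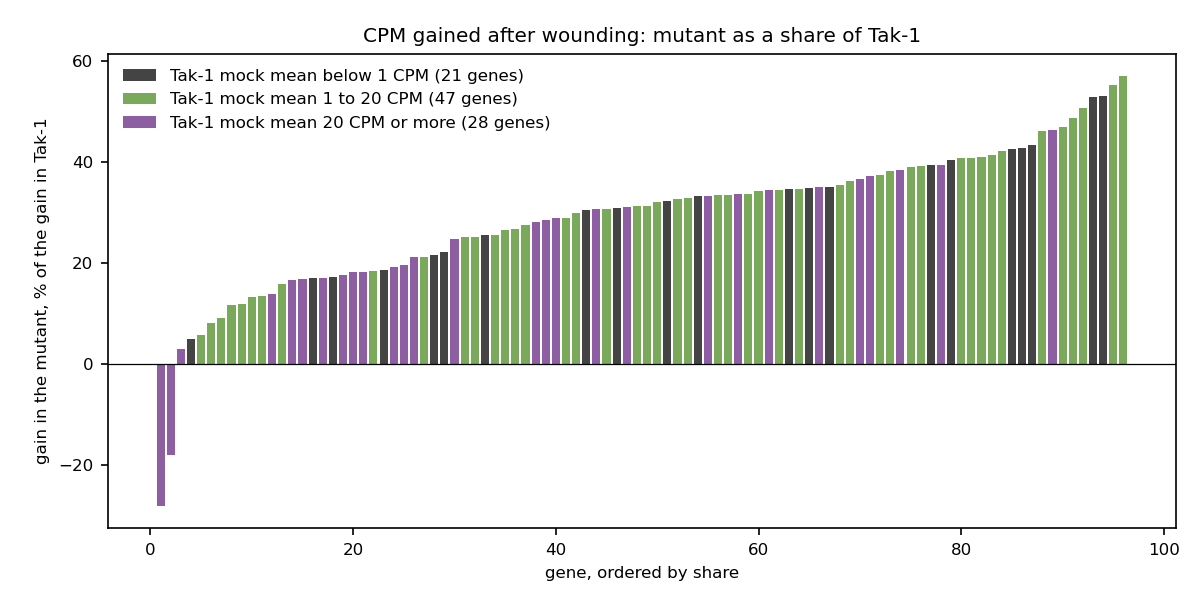
CPM gained after wounding in the double mutant as a percentage of the gain in Tak-1, 1 bar per gene for the 96 genes in order of share, coloured by the mean level in Tak-1 mock. Bars run from -28.3% to 57.2% around a median of 31.4%, and the 3 classes of mock level are spread along the order.

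Of the 96 genes, 92 are in the reference gene table and 17 carry a symbol there. They are given by role, with the genes that act on other genes first.

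MpERF21 (Mp5g22160), of the ethylene response factor family of DNA-binding proteins, had the highest response of all 96 genes in both genotypes on the log2(CPM + 0.5) scale, an order that depends on the 0.5 CPM added. After wounding it had 98.8, 124 and 135 CPM in mutant libraries 1, A and B and 238, 221 and 216 CPM in wounded Tak-1 libraries 1 to 3. It was near silent in mock, at 0.119, 0.732 and 0.0848 CPM in the mutant and 0.184, 0 and 0.227 CPM in Tak-1. The responses were 7.20 in the mutant and 8.47 in Tak-1, and the mutant gained 52.9% of the Tak-1 gain. Without mutant mock library 2, the highest of the mock libraries, the difference of responses was -0.83 in place of -1.26, outside the rule. The fitted difference, -1.88 ± 0.91 (SE), was not called (edgeR adjusted p = 0.353).

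MpERF7 (Mp6g04880), of the same family, started from a measurable level. It had 35.3, 41.0 and 47.3 CPM in the wounded mutant and 84.5, 96.5 and 84.8 CPM in wounded Tak-1, against 16.3, 22.1 and 14 CPM in mutant mock and 13.7, 10.2 and 15.1 CPM in Tak-1 mock. The wounded groups do not overlap and the mock groups do. The difference of responses was -1.51 by the rule and -1.62 ± 0.26 (SE) in the edgeR fit.

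MpBHLH2 (Mp2g00890), of the basic helix-loop-helix transcription factors, had 54.5, 70.1 and 83.4 CPM in the wounded mutant and 174, 158 and 142 CPM in wounded Tak-1. Its mock levels were 9.55, 7.16 and 6.74 CPM in the mutant and 8.27, 5.65 and 8.63 CPM in Tak-1. The mutant gained 40.8% of the Tak-1 gain, with responses of 3.07 in the mutant and 4.31 in Tak-1. MpC2H2-13 (Mp3g09820), a zinc-finger protein gene, responded little in the mutant. It had 35.8, 45.3 and 44.6 CPM in the wounded mutant and 109, 76.7 and 97.6 CPM in wounded Tak-1, against 28.7, 29.7 and 30.3 CPM in mutant mock and 27.4, 31.4 and 30.7 CPM in Tak-1 mock. The mutant gained 19.1% of the Tak-1 gain.

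MpMAPKKK10 (Mp4g08320) is named as a kinase of the first tier of the MAP kinase cascades, which relay stress signals in plants. It had 49.9, 67.3 and 67.1 CPM in the wounded mutant and 129, 141 and 106 CPM in wounded Tak-1. In mock it had 12, 18.8 and 16.2 CPM in the mutant and 11.7, 11.6 and 16 CPM in Tak-1. The responses were 1.94 in the mutant and 3.21 in Tak-1. MpBHLH2, MpC2H2-13 and MpMAPKKK10 met the rule with each of the 12 libraries left out in turn. Of the 17 genes with a symbol, 5 did so. MpCYP822A1 met it in 3 of the 12 cases, MpGST30, MpNPF21 and MpEXL5 in 7, MpDAHP in 8 and the others in 9 to 11.

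MpLOX4 (Mp5g21680) is the 1 gene with a lipoxygenase symbol among the 96 genes. Lipoxygenases add oxygen to polyunsaturated fatty acids. MpLOX4 is described by its own values. It had 69.5, 59.4 and 93.8 CPM in the wounded mutant and 200, 308 and 278 CPM in wounded Tak-1. In mock it had 8.88, 5.60 and 6.78 CPM in the mutant and 9.28, 5.40 and 11.8 CPM in Tak-1. Its response was 3.30 in the mutant and 4.81 in Tak-1, and the mutant gained 26.5% of the Tak-1 gain.

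MpDIR1 and MpDAHP belong to phenolic metabolism and lie at opposite ends of the range of levels. MpDIR1 (Mp3g07420) is named for dirigent proteins, which in flowering plants steer the coupling of phenolic radicals. By the rule it had the largest difference of responses of the 96 genes, -2.68. Its fitted difference, -3.70 ± 0.98 (SE), was not called (edgeR adjusted p = 0.0638). It had 0.328, 0.196 and 0.697 CPM in the wounded mutant and 5.47, 4.28 and 6.30 CPM in wounded Tak-1, against 0.199, 0 and 0.254 CPM in mutant mock and 0.184, 0.0504 and 0.227 CPM in Tak-1 mock. In the mutant its wounded and mock ranges overlap close to the detection floor. Whether its reads are shared with other dirigent genes was not tested.

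MpDAHP (Mp8g10340), named for DAHP synthase, the entry enzyme of the shikimate pathway to aromatic compounds, had the highest wounded level of the 96 genes. It had 496, 449 and 591 CPM in the wounded mutant and 1082, 1191 and 1091 CPM in wounded Tak-1. Its mock levels were 232, 204 and 206 CPM in the mutant and 208, 230 and 243 CPM in Tak-1. The responses were 1.26 in the mutant and 2.30 in Tak-1, and the difference of responses in the fit was -1.14 ± 0.15 (SE).

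Genes with terpene names included 2 that hardly responded in the mutant. MpMTPSL-like (Mp5g18940), of the microbial-type terpene synthases found in liverworts, had 22.1, 27.1 and 21.8 CPM in the wounded mutant and 83.1, 60.8 and 44.1 CPM in wounded Tak-1, with 26.4, 20.3 and 20.6 CPM in mutant mock and 23.5, 17.4 and 27.5 CPM in Tak-1 mock. The mutant gained 3.03% of the Tak-1 gain. MpFTPSL2 (Mp6g04320), named as a terpene synthase-like gene, had 3.64, 4.31 and 3.70 CPM in the wounded mutant and 9.53, 11.5 and 12.9 CPM in wounded Tak-1, against 4.02, 3.82 and 2.67 CPM in mutant mock and 4.59, 3.78 and 5.58 CPM in Tak-1 mock. Both genes overlap between wounded and mock in the mutant and separate in Tak-1.

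MpSQC1 (Mp8g14000), named as a squalene cyclase, an enzyme type that closes the rings of triterpenes, was near silent in mock. It had 0.583, 1.52 and 0.976 CPM in the wounded mutant and 3.66, 5.51 and 6.47 CPM in wounded Tak-1. Its mock levels were 0.119, 0.157 and 0.170 CPM in the mutant and 0.0459, 0 and 0.130 CPM in Tak-1, at or near the floor. The mutant gained 17.0% of the Tak-1 gain. The fitted difference of responses, -3.51 ± 0.93 (SE), was not called (edgeR adjusted p = 0.0645).

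The markers of oil body cells, where liverworts store terpenes, were measured beside these genes. Of the 4 markers found by symbol, a lower response in the mutant was called for MpC1HDZ. No difference of responses was called for MpSYP12B, MpERF13 and MpABCG1. The markers did not move together after wounding: MpC1HDZ was called higher and MpABCG1 lower in both genotypes, and MpSYP12B and MpERF13 were called in neither. The summed level of the 4 was 94.5 to 115 CPM in the wounded mutant, 167 to 181 CPM in wounded Tak-1, 63.0 to 77.8 CPM in mutant mock and 69.7 to 87.2 CPM in Tak-1 mock, and none was at 0 in any group. MpC1HDZ, a transcription factor gene, carried most of the sum, with 92.2 CPM in the wounded mutant, 160 CPM in wounded Tak-1, 46.4 CPM in mutant mock and 51.6 CPM in Tak-1 mock. The part of these cells in the results above was not tested.

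Genes of conjugation and transport included a pair of neighbours. MpGST29 (Mp2g22390), named as a glutathione transferase, had 29.2, 45.6 and 33.3 CPM in the wounded mutant and 81.1, 65.5 and 59.9 CPM in wounded Tak-1, with 4.74, 8.00 and 5.38 CPM in mutant mock and 4.91, 4.69 and 5.42 CPM in Tak-1 mock. MpGST30 (Mp2g22410), its near neighbour, had 30.5, 43.0 and 37.2 CPM in the wounded mutant and 73.3, 58.1 and 52.1 CPM in wounded Tak-1, with 5.17, 6.38 and 5.17 CPM in mutant mock and 4.36, 3.98 and 5.13 CPM in Tak-1 mock. The mutant gained 47.0% of the Tak-1 gain for MpGST29 and 55.2% for MpGST30. They count as 2 of the 96 genes; whether reads are shared between them was not tested.

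MpUGT35 (Mp8g09770), named as a glycosyltransferase, shows how far 1 library can carry a value. It had 58.6, 96.6 and 81.5 CPM in the wounded mutant and 314, 158 and 168 CPM in wounded Tak-1, against 20.4, 22.6 and 18.9 CPM in mutant mock and 19.3, 16.4 and 20.4 CPM in Tak-1 mock. The difference of responses was -1.57, and -1.18 without wounded Tak-1 library 1. MpCYP822A1 (Mp5g22720), a P450 gene, also had its highest value in that library. It had 44.4, 47.7 and 60.5 CPM in the wounded mutant and 98.8, 56.2 and 65.9 CPM in wounded Tak-1, so the wounded groups overlap, with 25.7, 33.3 and 34.0 CPM in mutant mock and 24.2, 17.2 and 24.7 CPM in Tak-1 mock. For this gene neither a lower response in the mutant (edgeR adjusted p = 0.0715) nor a lower wounded level (edgeR adjusted p = 0.0851) was called.

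MpNPF21 (Mp5g04910), of the nitrate and peptide transporter family, had 129, 145 and 182 CPM in the wounded mutant and 301, 388 and 347 CPM in wounded Tak-1. In mock it had 56.5, 48.7 and 67.9 CPM in the mutant and 55.9, 72.6 and 66.6 CPM in Tak-1. MpEXL5 (Mp7g05080) had 76.8, 76.8 and 88.7 CPM in the wounded mutant and 155, 127 and 120 CPM in wounded Tak-1, with 28.5, 19.7 and 16.8 CPM in mutant mock and 18.1, 15.8 and 18.8 CPM in Tak-1 mock. Without mutant mock library 1 its difference of responses was -0.78 in place of -1.02.

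**Figure D4:**
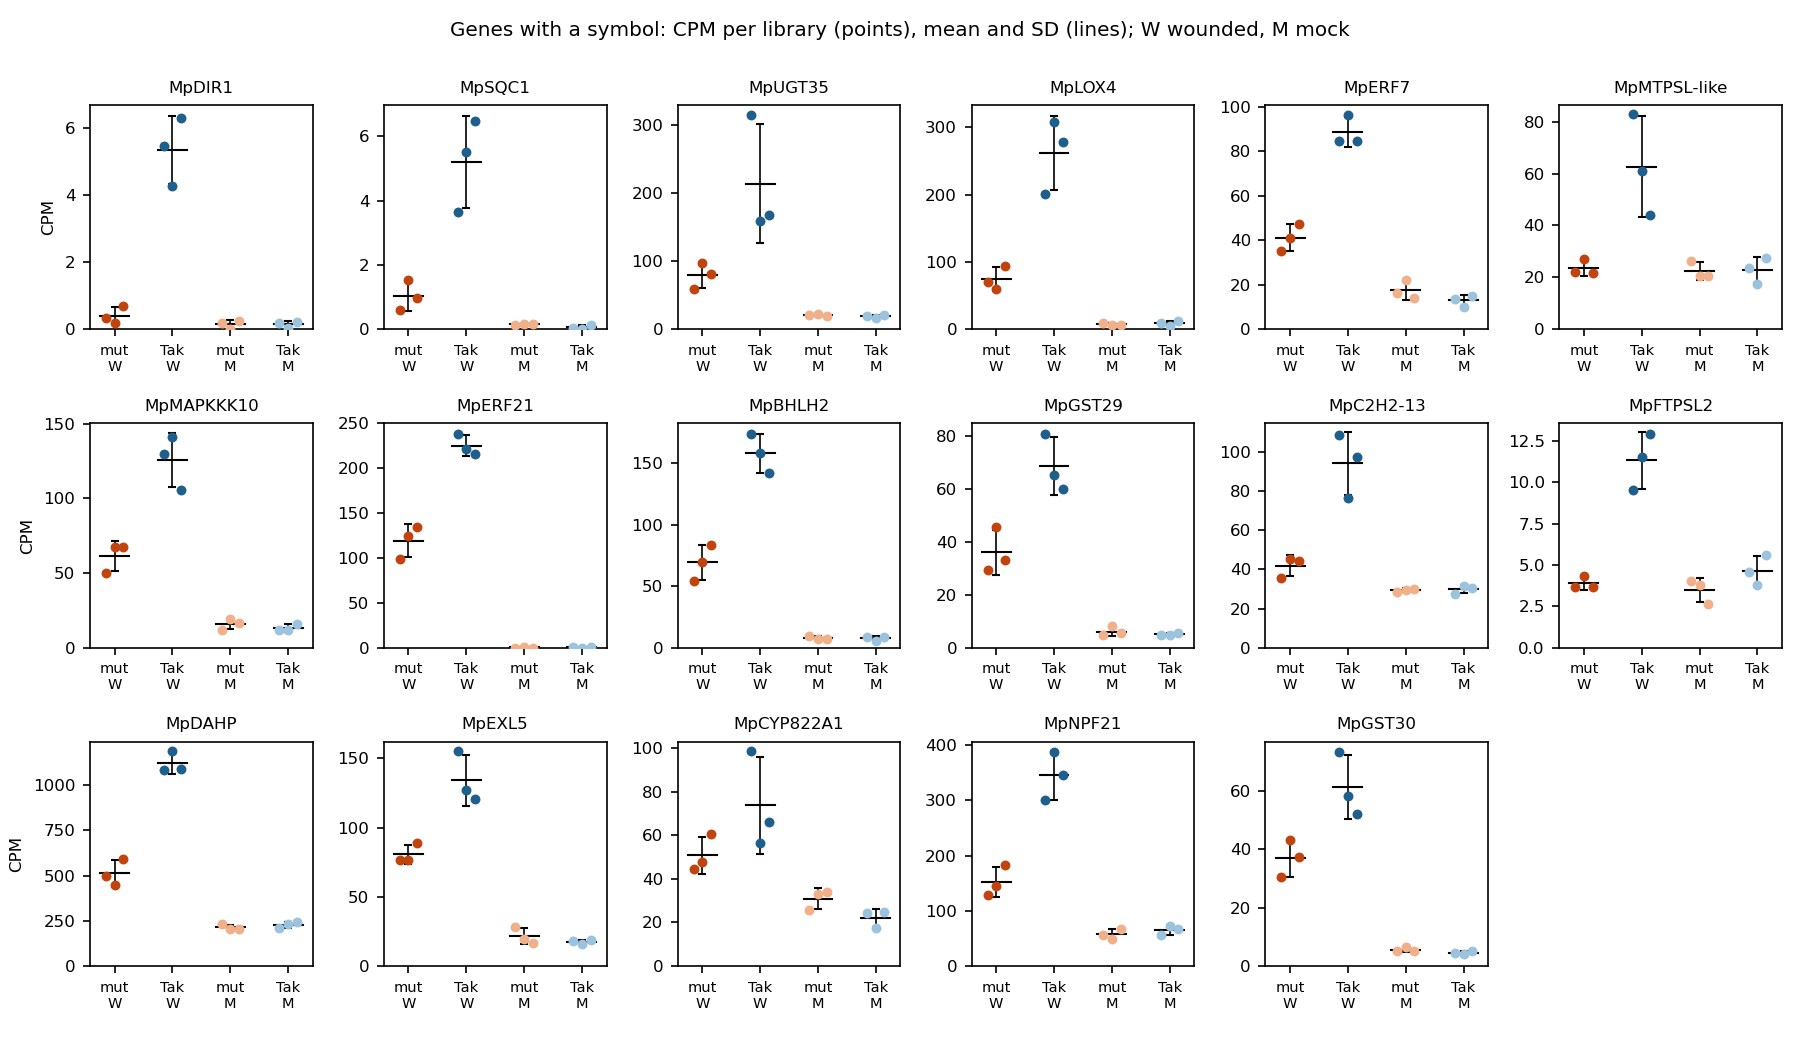
CPM of the 17 genes with a symbol in each library (points), with the mean and SD of each group (lines), for wounded mutant, wounded Tak-1, mutant mock and Tak-1 mock from left to right; each panel has its own linear axis from 0. Wounded mutant points lie under the wounded Tak-1 points in every panel except MpCYP822A1, where they overlap.

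The remaining 79 genes have no symbol, and their products are not named in the sources used here. Those with the least response in the mutant were expressed in mock at moderate levels. Mp3g02720 had 18.7, 16.1 and 15.9 CPM in the wounded mutant and 40.6, 34.4 and 48.7 CPM in wounded Tak-1, against 19.3, 25.8 and 23.4 CPM in mutant mock and 17.8, 20.5 and 22.4 CPM in Tak-1 mock. Mp2g26010 had 34.5, 37.6 and 32.9 CPM in the wounded mutant and 83.9, 84.5 and 111 CPM in wounded Tak-1, against 43.7, 47.5 and 39.1 CPM in mutant mock and 44.7, 42.9 and 50.2 CPM in Tak-1 mock. These are the genes called lower after wounding in the mutant, with responses of -0.42 and -0.31, and for both the response in Tak-1 was 1.01.

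Other genes responded weakly in the mutant without falling. Mp4g09190 responded by 0.12 in the mutant and 1.12 in Tak-1, Mp5g21930 by 0.29 and 1.45, and Mp3g06380 by 0.34 and 1.38. Mp2g10270 had 149, 162 and 161 CPM in the wounded mutant and 277, 258 and 239 CPM in wounded Tak-1, with 121, 128 and 121 CPM in mutant mock and 101, 96.8 and 98.6 CPM in Tak-1 mock. Its mutant mock libraries were all above its Tak-1 mock libraries, and its wounded mutant libraries all below its wounded Tak-1 libraries.

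Most of the largest differences of responses were in genes of low mock level. Mp1g22370 had 4.15, 3.77 and 3.66 CPM in the wounded mutant and 18.7, 18.8 and 32.6 CPM in wounded Tak-1, against 2.51, 1.57 and 1.65 CPM in mutant mock and 2.94, 1.21 and 2.30 CPM in Tak-1 mock. The mutant gained 9.20% of the Tak-1 gain, and the difference of responses was -2.31. Mp3g24480 and Mp5g23140 both had -2.14, Mp2g15440 had -1.93 and Mp8g13020 had -1.88. The mutant gained from 11.6% (Mp3g24480) to 25.2% (Mp8g13020) of the Tak-1 gain in these 4 genes.

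Mp7g06530 joined a large difference with a high level. It had 122, 112 and 147 CPM in the wounded mutant and 677, 525 and 596 CPM in wounded Tak-1, with 49.7, 23.6 and 25.4 CPM in mutant mock and 32.8, 51.8 and 39.6 CPM in Tak-1 mock. The wounded mutant stood at 21.1% of wounded Tak-1. Without mutant mock library 1, the highest of its group, the difference of responses was -1.49 in place of -1.91.

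Several other abundant genes had differences of -1.25 or nearer to the threshold. Mp2g09460 had 322, 386 and 372 CPM in the wounded mutant and 724, 639 and 546 CPM in wounded Tak-1, against 170, 169 and 162 CPM in mutant mock and 149, 135 and 155 CPM in Tak-1 mock. Mp2g04610, Mp1g03120, Mp3g10600, Mp6g09380 and Mp7g14370 responded by 1.21 to 1.95 in the mutant and by 2.46 to 2.97 in Tak-1. Their wounded mutant levels were 37.6 to 47.7% of wounded Tak-1. For Mp6g09380 the 3 mutant mock libraries had 54.8, 54.4 and 54.4 CPM, and the fitted difference of responses was -1.35 ± 0.15 (SE).

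Mp6g05600, Mp1g09120 and Mp4g03890 were picked because their responses in the mutant were among the highest of the 96 genes. Their large responses in the mutant therefore restate that choice. Mp6g05600 had 135, 175 and 166 CPM in the wounded mutant and 517, 435 and 405 CPM in wounded Tak-1, against 3.94, 4.03 and 4.49 CPM in mutant mock and 3.77, 4.19 and 4.12 CPM in Tak-1 mock. Its response was 5.10 in the mutant and 6.65 in Tak-1. Mp1g09120 had 129, 182 and 169 CPM in the wounded mutant and 301, 263 and 262 CPM in wounded Tak-1, with 3.98, 5.28 and 4.24 CPM in mutant mock and 3.90, 2.62 and 3.63 CPM in Tak-1 mock. The mutant gained 57.2% of the Tak-1 gain, the highest share among the 96 genes. Mp4g03890 responded by 4.29 in the mutant and 5.48 in Tak-1.

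For genes near 0 in mock the size of the response is uncertain. Mp3g04310 had 25.1, 34.4 and 34.6 CPM in the wounded mutant and 81.8, 92.9 and 94.4 CPM in wounded Tak-1, and at most 0.339 CPM in any mock library. Mp5g21750 had 11.9, 15.8 and 17.1 CPM in the wounded mutant and 47.7, 55.6 and 43.4 CPM in wounded Tak-1. It had 2 counts in all mutant mock libraries together, so its mutant fold of 504 has a 95% counting interval (exact, conditional on the sum) of 139 to 4169. The difference of responses was -1.35 by the rule and 0.38 ± 0.92 (SE) in the fit, so its direction depends on how counts near 0 are treated. Mp6g09000, at 17.7, 15.8 and 22.8 CPM in the wounded mutant and 61.8, 115 and 83.4 CPM in wounded Tak-1, had -1.71 by the rule and -0.23 ± 2.30 (SE) in the fit. Of the 96 genes 2 had a fitted difference above 0, and both were among the 21 that were under 1 CPM in Tak-1 mock.

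The 96 genes are spread over 8 chromosomes, with 6 to 15 on each and none on the V chromosome. Within the gene order of the reference table, 9 of 92 lie directly beside another of the 96 (9.78%), against 230 of the 1036 wound-induced genes in that table, which lie beside another wound-induced gene (22.2%). The sets differ in size, so these shares are not compared. Within a distance of 5 genes there are 6 groups, holding 14 of the 96 genes.

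On chromosome 5, Mp5g07480, Mp5g07490 and Mp5g07500 are adjacent and all 3 were strongly induced. Mp5g07480 had 19, 25 and 24.1 CPM in the wounded mutant and 56.7, 56.9 and 58.8 CPM in wounded Tak-1. It had 0 counts in Tak-1 mock, so the Tak-1 level was at least 1385-fold higher after wounding, taking 3 counts over the mock group as the floor, and 2 counts in mutant mock, so the mutant fold of 762 has a counting interval of 211 to 6299. Mp5g07490 averaged 12.3 CPM in the wounded mutant and 37.7 CPM in wounded Tak-1, and Mp5g07500 averaged 44.7 and 88.6 CPM. A lower response in the mutant was not called for Mp5g07480, Mp5g07490 or Mp5g07500 (edgeR adjusted p = 0.259, 0.412 and 0.0617). The next gene, Mp5g07510, also responded in both genotypes, by 1.47 in the mutant and 2.04 in Tak-1, but is not among the 96.

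On chromosome 4, Mp4g03330, Mp4g03350 and Mp4g03360 lie close together. Mp4g03350 had 16.2, 20.6 and 25.4 CPM in the wounded mutant and 73.8, 75.5 and 79.8 CPM in wounded Tak-1, with 2.91, 1.88 and 1.95 CPM in mutant mock and 2.66, 3.83 and 2.98 CPM in Tak-1 mock. Mp4g03330 averaged 2.34 CPM in the wounded mutant and 15.2 CPM in wounded Tak-1. Mp4g03360 had 0 counts in all mock libraries, and was at least 24.5-fold higher after wounding in the mutant and at least 139-fold higher in Tak-1. Both are lower bounds, so they do not give a difference of folds. In the fit a lower response in the mutant was not called for Mp4g03360 (edgeR adjusted p = 0.9998), and it was called for Mp4g03330 and Mp4g03350. Mp4g03340, between them, had 21.8 CPM in the wounded mutant and 80.4 CPM in wounded Tak-1 and a difference of responses of -1.18. Its mock levels, 2.5 CPM in the mutant and 4.31 CPM in Tak-1, kept it out of the set.

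The other groups are pairs. Mp1g16520 had 88.8, 113 and 112 CPM in the wounded mutant and 337, 278 and 282 CPM in wounded Tak-1, and its neighbour Mp1g16530 had 9.80, 12.2 and 10.1 CPM in the wounded mutant and 42.5, 34.1 and 42.9 CPM in wounded Tak-1. Their differences of responses were -1.65 and -1.79. Mp7g02460 and Mp7g02470 had -1.41 and -1.22. Mp1g09100 and Mp1g09120 have between them Mp1g09110, which responded by -0.24 in the mutant and 0.41 in Tak-1, and MpGST29 and MpGST30 by Mp2g22400, which stayed under 1 CPM in every group mean. Whether any of these neighbours are similar copies that share reads was not tested.

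**Figure D5:**
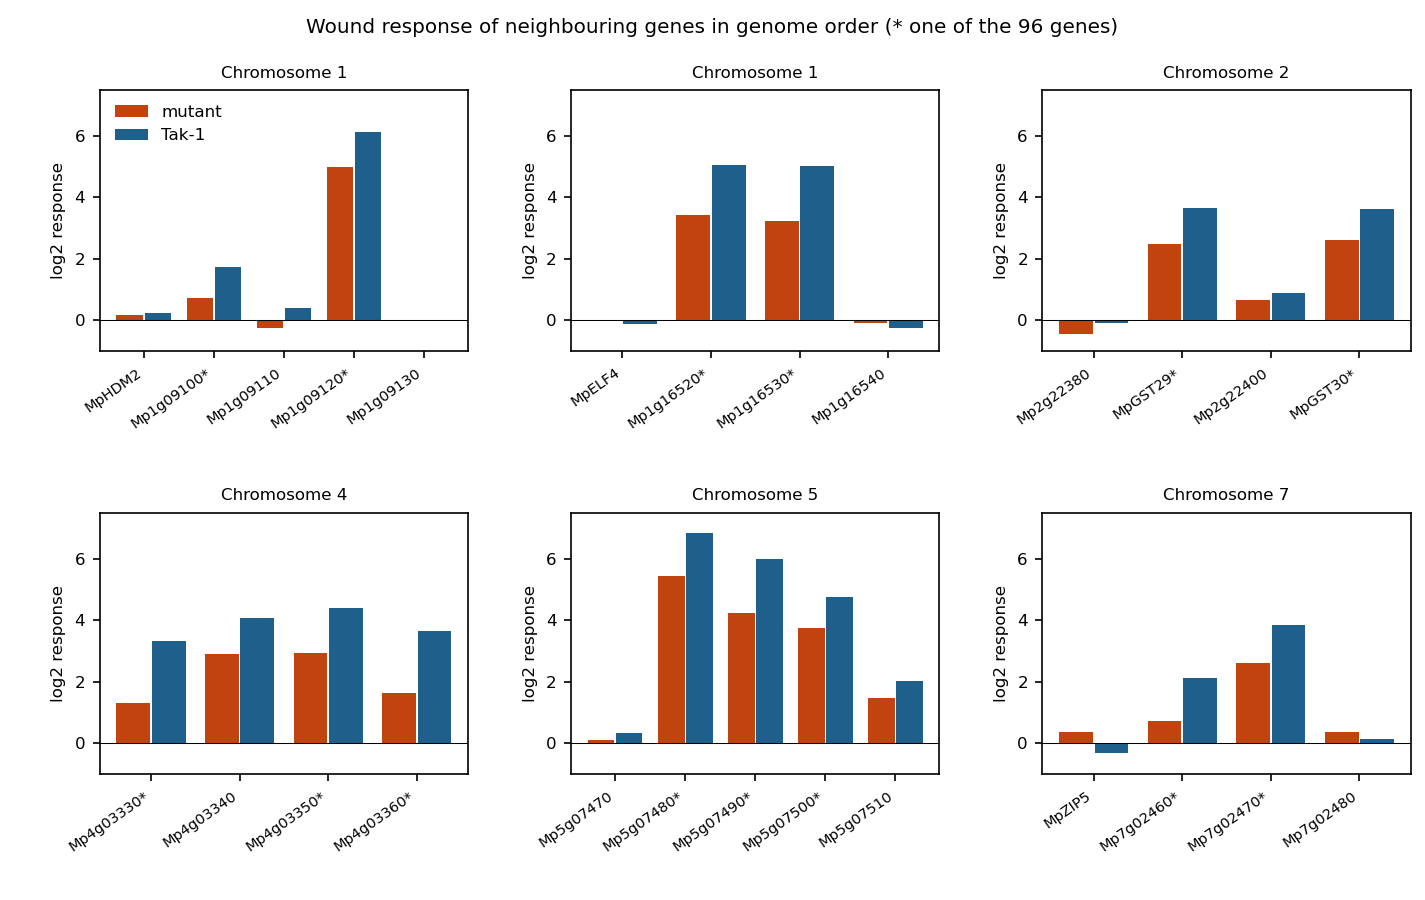
Log2 response to wounding (CPM + 0.5) in the double mutant (left bar of each pair) and Tak-1 (right bar) for the 6 groups of neighbouring genes, in genome order with the gene on either side where it was counted; an asterisk marks the 96 genes. Responses of Mp5g07480 to Mp5g07500 run from 3.75 to 5.46 in the mutant and from 4.76 to 6.86 in Tak-1, and those of the flanking gene MpELF4 are -0.01 and -0.10.

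Genes named for the pathway that leads to and from jasmonates were set beside the 96 genes by symbol, with values from the edgeR fit over all genes. The synthesis list holds lipoxygenases and CYP74 genes only, since no AOS, AOC, OPR, ACX, KAT or PXA symbol was found. Whether each of its genes acts in jasmonate synthesis was not tested. Of all genes tested, 28.6% were called higher and 22.6% lower after wounding in the mutant, 30% higher and 25% lower in Tak-1, and 2.59% had a lower response in the mutant. Of 17 genes tested from the synthesis list, 9 were called higher, 3 lower and 5 not called in the mutant, and 8 higher, 3 lower and 6 not called in Tak-1. Their median response was 0.99 in the mutant and 0.79 in Tak-1, against 0.02 and 0.01 over all genes tested. A lower response in the mutant was called for 4 (MpLOX4, MpLOX2, MpLOX14 and MpCYP74N2) and not for 13, with a median of -0.13. MpLOX4 is among the 96 genes, so its call rests on the values that chose it and is not read as a result about the list. The wounded level was called lower in the mutant for 7 of the 17, higher for 0 and not called for 10, beside 9.51% of all genes tested called lower. In mock, 2 of the 17 were called lower in the mutant, 0 higher and 15 not called, beside 4.52% of all genes tested called in either direction. The 7 include MpLOX8, which was also called lower in mock, and MpLOX4, whose values chose it. The 18 genes in the table summed to 2546 to 2933 CPM in the wounded mutant, 4645 to 5247 CPM in wounded Tak-1, 1172 to 1246 CPM in mutant mock and 1451 to 1530 CPM in Tak-1 mock.

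Of 6 jasmonate signalling genes, 4 were called higher and 2 lower after wounding, in the mutant and in Tak-1 alike by count. A lower response in the mutant was called for 3 of them and not called for 3, with a median of -0.41 against -0.00 over all genes. The 3 were MpJAZ, the repressor gene, with 119 CPM in the wounded mutant and 209 CPM in wounded Tak-1, and MpCYP94L1 and MpCYP94-like, of a P450 family that in Arabidopsis breaks down jasmonates. MpCYP94-like (Mp2g10330) met the rule for the 96 genes and is 1 of the 11 left out by name. Its call therefore also rests on the values that the rule used. MpCOI1, the receptor gene, averaged 70.9 CPM in the wounded mutant, 70.3 CPM in wounded Tak-1, 102 CPM in mutant mock and 116 CPM in Tak-1 mock.

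Of 14 desaturase genes, 3 were called higher, 3 lower and 8 not called after wounding in the mutant, and 8 higher, 3 lower and 3 not called in Tak-1. A lower response in the mutant was called for MpFAD5 and MpFAD11, and no difference for the other 12, with a median of -0.07. MpFAD11 averaged 195 CPM in the wounded mutant, 911 CPM in wounded Tak-1, 182 CPM in mutant mock and 549 CPM in Tak-1 mock, so it differed between the genotypes before wounding. MpFAD8 averaged 20.5 CPM in the wounded mutant, 117 CPM in wounded Tak-1, 13.7 CPM in mutant mock and 66.8 CPM in Tak-1 mock, and also differed in mock (-2.23 ± 0.24 log2, edgeR adjusted p = 0.000475); it was chosen after its values were seen. No gene with a desaturase symbol is among the 96.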

How the data were processed

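The deposited table holds raw counts per gene, which the authors did not normalize as far as the values show: whole numbers whose totals vary by library. Trim Galore, HISAT2, HTSeq and edgeR are named, without versions or settings, per the submitters' processing notes; the genome build, annotation and strandedness were not given in the sources used here, so no coordinates are printed, and reads of antisense or similar genes cannot be told apart.

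The 96 genes, the lists and the tests were chosen with earlier results of these data known. The rule used CPM over library totals (Python 3.11.15). Counts were fitted with edgeR 4.0.16 in R 4.3.3: filterByExpr by group, TMM, 1 mean per group over all 12 libraries, quasi-likelihood tests of 5 two-sided contrasts, Benjamini-Hochberg adjustment over 13726 genes (8 residual degrees of freedom; biological coefficient of variation 0.121). DESeq2 1.42.0, other scalings and left-out libraries served as alternatives. Floors and counting intervals cover counting error only. Replicates are pools of plants.

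Named are all genes with a symbol, the 12 highest in wounded Tak-1, the 10 with the most negative difference, the 8 lowest and 8 highest responses in the mutant, adjacent genes, and 2 genes on either side of the threshold. Of 20574 IDs, 17386 matched protein-coding locus tags of RefSeq assembly MpTak2_v7.1, used for names and gene order only. Searches for promoter motifs were not run, and no sequences are printed. Rhizoid markers had no matching symbol. Of the air pore and thallus markers, MpRBCS was not called and MpNOP1 had a lower response in the mutant.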

Additional observations from a re-analysis of the deposited data

Results flagged for a closer look

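Outside the 96 genes, 8 genes of the jasmonate and desaturase lists had wound responses that differed between the genotypes in edgeR's interaction test (mutant minus Tak-1, log2 ± SE, adjusted over all genes tested). The 8 include MpCYP94-like, which met the rule and was left out by name. The jasmonate synthesis, jasmonate signalling and desaturase lists hold 17, 6 and 14 tested genes. A lower response in the mutant was called for 2.59% of all genes tested. MpLOX2 (Mp2g23380) had -0.92 ± 0.15 (adjusted p = 0.00408), MpCYP74N2 (Mp5g16260) had -0.96 ± 0.17 (adjusted p = 0.00681) and MpLOX14 (Mp8g12930) had -0.997 ± 0.14 (adjusted p = 0.00183). MpFAD11 (Mp5g20700) had -0.73 ± 0.14 (adjusted p = 0.0121). For these 4 genes the call was made without each of the 12 libraries in turn. The mutant libraries were below the Tak-1 libraries in mock too: MpLOX2 had 186 to 208 CPM in mutant mock and 238 to 262 CPM in Tak-1 mock, MpCYP74N2 had 220 to 244 CPM in mutant mock and 276 to 306 CPM in Tak-1 mock, and MpFAD11 had 169 to 191 CPM in mutant mock and 527 to 591 CPM in Tak-1 mock. The mock ranges of the genotypes overlap for 73.5% of all genes tested. Of these mock differences edgeR called that of MpFAD11 (adjusted p = 3.68e-06) and not those of MpLOX2 (0.177) and MpCYP74N2 (0.186). MpLOX14 differed in kind from the 96 genes: it had 196 to 220 CPM in the wounded mutant and 434 to 558 CPM in wounded Tak-1, against 475 to 516 CPM in mutant mock and 583 to 673 CPM in Tak-1 mock, so its level was below mock in both genotypes. That fall was called in the mutant (edgeR adjusted p = 3.76e-07) and not in Tak-1 (edgeR adjusted p = 0.0669).

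MpCYP94-like (Mp2g10330) had -1.62 ± 0.35 (edgeR adjusted p = 0.0257). This gene met the rule and was left out by name. Its call therefore rests on the values that the rule used and is not read as a result. The call did not hold without Tak-1 mock library 3 (0.0770) or wounded mutant library 1 (0.0550). Nor did it hold without mutant mock library 1 (0.0522) or 2 (0.0912). MpJAZ (Mp6g06230) had -0.74 ± 0.16 (adjusted p = 0.0257), and this call did not hold when library 1 of Tak-1 mock (0.0720), library 2 of mutant mock (0.0579), or library 1 (0.0590) or A (0.0653) of the wounded mutant was left out. MpCYP94L1 (Mp5g04140) had -0.74 ± 0.18 (adjusted p = 0.0429) and kept its call in 3 of the 12 fits that leave out 1 library (adjusted p up to 0.113). In these 3 genes all 3 wounded mutant libraries were below every wounded Tak-1 library, which holds for 14.3% of all genes tested. MpFAD5 (Mp3g10660) had -0.49 ± 0.12 (adjusted p = 0.0422) and also kept its call in 3 of 12 such fits (adjusted p up to 0.117); 1 wounded mutant library was below every wounded Tak-1 library, and its mock levels were 304 to 340 CPM in the mutant and 213 to 257 CPM in Tak-1.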

How the results depend on the processing

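With each library left out in turn, the rule chose 84 to 112 genes, of which 72 to 91 are among the 96, and 41 of the 96 were chosen every time; without mutant mock library 1 it chose 84, 72 of them among the 96. CPM over TMM-scaled totals gave 124 (95 shared), a pseudocount of 1 CPM 91 (85), and leaving out both unnumbered libraries, an alternative chosen after seeing the data, 142 (90). Of the 96 genes, 52 to 63 had a lower response in the mutant with 1 library left out (63 with all), 84 to 89 a higher level after wounding in the mutant (86), 96 to 96 in Tak-1 (96), 89 to 95 a lower level in the wounded mutant (94) and 0 to 2 a change in mock (2). DESeq2 called 78 lower responses. Genes changed in mock were 1 with only the mock groups fitted (80 of the 96 tested) and 1 without both unnumbered libraries, where 53 had a lower response, 75 were higher after wounding in the mutant and 82 lower in the wounded mutant. Upper-quartile scaling moved the median of all genes by -0.19 in Tak-1 and -0.14 in the mutant.

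Equal library numbers did not mark pairs: over 12 same-numbered pairs of libraries from different groups the deviations correlated at -0.187 to 0.268, over 0.1 in 3, and in Tak-1 at -0.142, -0.078 and -0.143. With a replicate block within genotype, over the 10 numbered libraries, 28 lower responses and 68 higher levels after wounding in the mutant (96 in Tak-1) were called, and with a replicate block shared by the genotypes, chosen after seeing the data, 0 of the 96 changed in mock and 75 were lower in the wounded mutant. This block leaves 1 wounded mutant library, which is assumed to vary like the others. The depth limits the 21 genes under 1 CPM in Tak-1 mock.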

Other observations

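The rule turned round, a response of at least 1 in the mutant and at least 1 less in Tak-1 with the other conditions alike, was applied after seeing the data. It chose 3 of 946 genes (0.317%), and these values are a description. Mp3g10350 averaged 44.8 CPM in the wounded mutant and 26.1 CPM in wounded Tak-1, against 19.4 CPM in mutant mock and 23.2 CPM in Tak-1 mock. Mp4g19710 averaged 65.9 CPM in the wounded mutant and 31.9 CPM in wounded Tak-1, against 32.2 CPM in mutant mock and 35.9 CPM in Tak-1 mock. Mp5g19850 averaged 9.33 CPM in the wounded mutant and 3.48 CPM in wounded Tak-1, against 3.81 CPM in mutant mock and 4.95 CPM in Tak-1 mock. All 3 responded by 0.16 or less in Tak-1.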
